A study of Mus musculus with 19 samples.

Results

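The cytosolic ribosomal protein genes were followed through the first 96 h of culture of mouse hepatic stellate cells. Members were chosen by symbol alone: protein-coding genes named Rpl or Rps plus a number and at most 1 suffix letter a or x, together with Rplp0, Rplp1 and Rplp2. The rule found 75 of the 55487 genes in the count table, 29 of the small subunit, 43 of the large subunit and 3 of its stalk. Rpsa, Fau and Rps3a1, which also encode ribosomal proteins, carry other symbols and were described apart from the 75.

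Hepatic stellate cells (HSCs), the vitamin A-storing cells of the liver that turn into collagen-producing myofibroblasts, were sorted by their ultraviolet signal from healthy male Balb/c mice of 23 to 24 weeks that had received no treatment. Cells collected straight after the sort gave the 0 h group, and cells grown on collagen-coated plastic in DMEM with 10% fetal bovine serum were collected at 3, 6, 12, 18, 24 and 96 h, with the medium changed at 3 h and 24 h. All 19 libraries carry a repeat number, M1, M2 or M3. These numbers are called isolations here, which the sample names do not state. There were 3 libraries at each time, except that 0 h had no M1 library and 24 h had no M3 library. M1 and M3 shared an isolation date, and every library combined 2 technical repeats. The groups thus differ in time on plastic with serum and share strain, sex and health, so that plating, serum and time cannot be told apart. All values per library below are given in the order M1, M2, M3, which is M2 and M3 at 0 h and M1 and M2 at 24 h.

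The libraries held 2073171 to 7690892 counts, with a median of 4954915. Counts are 3' end tags, so that a transcript gives 1 tag whatever its length, and levels are given as CPM, counts relative to a library total that was scaled by the trimmed mean of M values (TMM). All 75 members passed the filter on low counts, their mean level ran from 46.9 CPM for Rpl29 to 2650 CPM for Rps29 with a median of 670.2 CPM, and the lowest count of a member in a library was 51. The stellate cell markers were present, with a summed level of 30000 to 34050 CPM (0 h) over 12 genes, 2034 to 2055 CPM (24 h) and 3014 to 3371 CPM (96 h). The 0 h libraries also held 3680 to 7840 CPM over 10 hepatocyte markers, 469.8 to 569.1 CPM over 10 macrophage markers and 13.3% ± 0.925 (SD, n = 2) mitochondrially encoded counts. At 24 h these were 71.8 to 90.4 CPM, 14.9 to 39.9 CPM and 4.21% ± 0.186 (SD, n = 2). Endothelial markers summed to 566 to 883 CPM over 8 genes at 0 h, 759 to 2618 CPM (3 h) and 159 to 474 CPM (24 h). The 6 myofibroblast markers summed to 2830 to 3634 CPM (0 h), 1502 to 1707 CPM (24 h) and 5458 to 7515 CPM (96 h). The 4 proliferation markers summed to 16.5 to 72.2 CPM (0 h), 4.71 to 7.06 CPM (24 h) and 243 to 304 CPM (96 h). Leukocyte markers (5 of 7, Cd3e, Cd79a, Nkg7, S100a8 and S100a9, at 0 in both 0 h libraries) summed to at most 33.3 CPM and cholangiocyte markers (Krt19, Krt7 and Epcam at 0 in both 0 h libraries) to at most 14.5 CPM in any library. Marco of the macrophage list and Lyve1 of the endothelial list were also at 0 in both 0 h libraries. The part of these shifts in the results below was not tested, and in such bulk samples fewer cells of a type and less RNA per cell cannot be told apart.

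A cytosolic ribosome is built from a small subunit that decodes the mRNA and a large subunit that joins the amino acids, each a scaffold of ribosomal RNA covered by ribosomal proteins. Because nearly every protein enters each ribosome in equal number, the genes are usually expressed together, and their mRNAs are among the most abundant of any cell. Most of these mRNAs begin with a 5' terminal oligopyrimidine (TOP) tract, a C followed by a run of C and T, through which mTORC1 and the RNA-binding protein Larp1 control their translation. Stellate cells that leave quiescence enlarge, make extracellular matrix and divide, all of which call on protein synthesis.

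The start sequences of the members were read to show what they have in common beyond their names. RefSeq starts (GRCm38.p6) were at hand for 55 of the 75 members. The annotated first base was a C followed by 4 pyrimidines, on the transcribed strand only, in 13 of the 55 members (23.6%) and in 813 of 27025 genes of the whole table (3.01%). A run of 8 pyrimidines that began within 20 bases of the annotated start was found in 30 of the 55 members (54.5%) and in 5658 of 27025 genes (20.9%), and it overlaps the first motif where both occur. The annotated start is not a measured start, so that a tract a few bases away is missed by the first motif. Shown are 30-base windows, 10 bases before the annotated start and 20 from it, with the pyrimidine tract that holds or ends at the start in capitals. Rps6 and Rpl35 are the members that more than doubled between 3 h and 6 h. Rps27 and Rps21 have the motif and were among those with the lowest fold changes at 18 h. Rps2 and Rplp0 were among those with the highest fold changes and had no such motif at the annotated start.
Rps6: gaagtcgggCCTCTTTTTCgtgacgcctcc
Rpl35: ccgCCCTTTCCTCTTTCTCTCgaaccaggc
Rps27: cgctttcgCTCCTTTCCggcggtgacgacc
Rps21: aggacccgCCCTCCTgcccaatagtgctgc
Rps2: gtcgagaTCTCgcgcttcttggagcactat
Rplp0: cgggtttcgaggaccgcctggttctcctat
These windows lie at chr4:86857348-86857377 (Rps6, minus strand), chr2:39005112-39005141 (Rpl35, minus), chr3:90213629-90213658 (Rps27, minus), chr2:180257369-180257398 (Rps21, plus), chr17:24720053-24720082 (Rps2, plus) and chr5:115559457-115559486 (Rplp0, plus), and each runs from 10 bases before the RefSeq start into the transcript. GENCODE begins Rps2 (24718116), Rpl35 (39005624) and Rps6 (86857412) further upstream than RefSeq does, so that by GENCODE these 3 windows lie inside the gene. Of the 13 members with the motif, 10 were called higher at 24 h, and the median log2 fold change of all 13 was 1.31 (range 0.03 to 2.04). Of the 42 without it, 27 were called, with a median of 1.12 (0.47 to 2.35), and the ranges of both sets overlapped widely.

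The share of all counts that fell on the 75 members was close to that of 0 h at 3 h and had a higher mean at each later time up to 24 h, as a description with no test. It was 3.27% and 3.41% (0 h), 3.06%, 3.20% and 3.34% (3 h), and 4.49%, 3.77% and 4.404% (6 h). It reached 6.38%, 5.53% and 5.80% (12 h), 7.73%, 6.25% and 6.801% (18 h), 9.45% and 7.27% (24 h), and 6.01%, 7.31% and 6.39% (96 h). Every library from 6 h on lay above both 0 h libraries, whereas the 3 h libraries overlapped them. The mean share was 3.34% ± 0.104 (SD, n = 2) at 0 h, 3.20% ± 0.14 (n = 3) at 3 h, 4.22% ± 0.391 (n = 3) at 6 h, 5.90% ± 0.433 (n = 3) at 12 h, 6.93% ± 0.748 (n = 3) at 18 h, 8.36% ± 1.54 (n = 2) at 24 h and 6.57% ± 0.665 (n = 3) at 96 h. Within isolation M2 the 24 h share was 2.23 times its own 0 h share and the 96 h share 2.24 times. In isolation M3, the share was 1.99 times its own 0 h value at 18 h and 1.87 times at 96 h. The M1 library at 24 h held the highest share of all and has no 0 h partner. Without it the 24 h mean was 2.18 times that of 0 h, and with it 2.504 times. With mitochondrially encoded counts left out of the total, the 24 h share was 2.27 times and the 96 h share 1.81 times that of 0 h. Wilson 95% intervals of these shares were at most 0.0283 percentage points to either side, which covers counting error only.

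**Figure D1:**
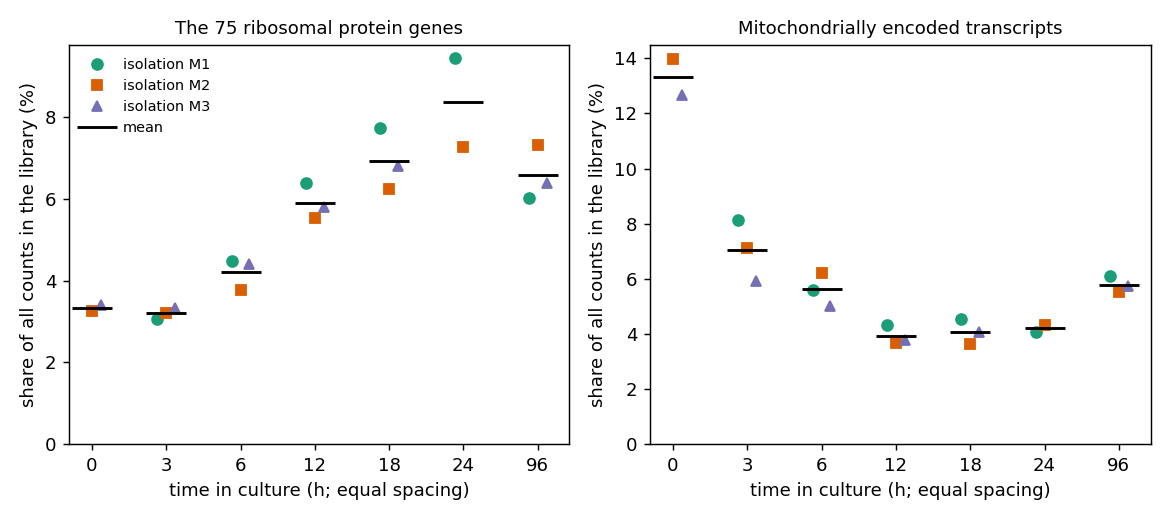
Share of all counts (%) held by the 75 ribosomal protein genes (left) and by mitochondrially encoded transcripts (right) in each of the 19 libraries, by time in culture in h at equal spacing. Points are libraries by isolation and bars are means: the mean ribosomal protein share was 3.34% at 0 h and 8.36% at 24 h, and the mean mitochondrial share was 13.3% and 4.21%.

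Each time was compared with 0 h to ask when the members changed. A call needed more than a 2-fold change and an adjusted p of less than 0.1. The test was edgeR's quasi-likelihood test, and p-values were adjusted by Benjamini-Hochberg over the 15138 genes tested. The p-values measure only the spread between these libraries, part of which may be technical, and those at the various times share the same 0 h samples. No member was called at 3 h, against 4.19% of all genes called higher, and DESeq2 called 0. An unadjusted p below 0.05 was found in edgeR for 8 of 75 members and for 2302 of 15138 genes. At 6 h only Rpl4 was called by edgeR and none by DESeq2, 1 of 75 members, against 6.98% of all genes. At 12 h 29 of 75 members were called higher, against a background of 8.6% of all genes. At 18 h it was 37 members against 7.64%, at 24 h 47 against 5.65% and at 96 h 28 against 5.83%. None was called lower at any of the 6 times. A closer background, of other abundant genes, is given below. DESeq2 called fewer, 13 (12 h), 13 (18 h), 30 (24 h) and 19 (96 h), and without the 24 h M1 library edgeR called 28 (24 h).

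The median member was level at 3 h and higher at each time up to 24 h. Its log2 fold change was 0.01 (3 h), 0.38 (6 h), 0.88 (12 h), 1.02 (18 h), 1.15 (24 h) and 0.88 (96 h), while the median over all genes tested was 0 at every time up to 24 h and 0.07 (96 h). The number of members above 0 was 38 (3 h), 62 (6 h), 72 (12 h), 74 (18 h), 75 (24 h) and 74 (96 h). At an adjusted p below 0.1 and any fold, 1 member was higher at 3 h (4.67% of all genes) and 1 was lower (1.52%), and 19 were higher at 6 h (7.91%). At 12 h 51 members were higher at any fold against 9.78% of all genes, at 18 h 53 against 8.67%, at 24 h 57 against 6.12% and at 96 h 47 against 6.59%. Both 24 h libraries exceeded both 0 h libraries in 73 of 75 members, as they did in 26.1% of all genes. Since the members are abundant, the 3783 other genes of at least 50 CPM are the closer background, and by the ratio of mean CPM 23.4% of these were above 2-fold at 24 h, against 65.3% of the members. At 3 h 19.8% of the other abundant genes and 0 of the 75 members were above 2-fold. Within isolation M2 the median log2 change was 0.05 (3 h), 0.71 (12 h), 0.98 (24 h) and 1.03 (96 h), and within M3 it was 0.04 (3 h), 0.84 (12 h) and 0.86 (96 h).

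**Figure D2:**
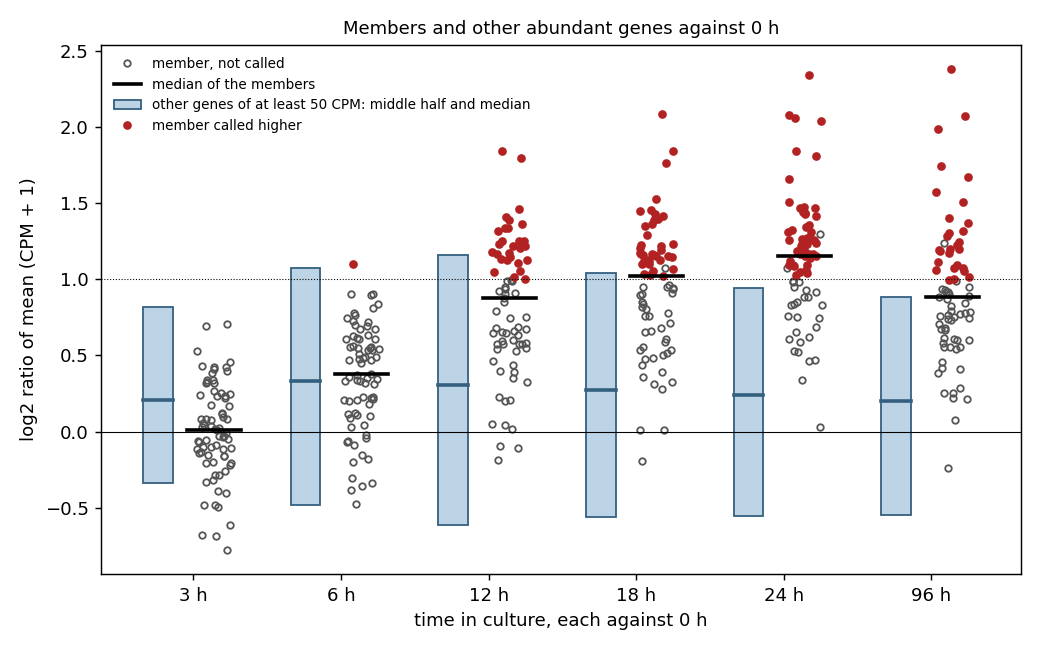
Log2 ratio of mean (CPM + 1) at each time against 0 h for the 75 members (points, filled where called higher; black bar, median) beside the interquartile range and median of the 3783 other genes of at least 50 CPM (blue box and line). The members' median rose from 0.01 at 3 h to 1.15 at 24 h, and the other genes' median stayed between 0.20 and 0.33.

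Of the 75 members, 67 differed over the 7 times at an adjusted p below 0.1 in the quasi-likelihood test of all times together, against 27.4% of all genes. Among the other 8 were Rpl23a, Rps7, Rps27 and Rps29, named here after their values were seen. The mean level was highest at 24 h for 44 members, at 96 h for 14, at 18 h for 12 and at 12 h for 5. The 24 h mean rests on M1 and M2 alone, and these disagreed on the order of 24 h and 96 h. The mean log2 CPM of the members was 9.81 (24 h) and 9.26 (96 h) in M1, but 9.52 and 9.63 in M2. At least 1 call was made for 53 members, 18 were called at 12, 18, 24 and 96 h alike, and 22 were called at no time. The correlation of a member with the mean of the others over the 19 libraries had a median of 0.859 and ran from 0.128 for Rps29 to 0.981. It was below 0.5 for 3 members, Rps29, Rps27 and Rpl23a. Rpl23a had 214 CPM at 6 h in M1 and 333 CPM at 18 h in M2, where its other libraries held 636 to 1806 CPM.

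**Figure D3:**
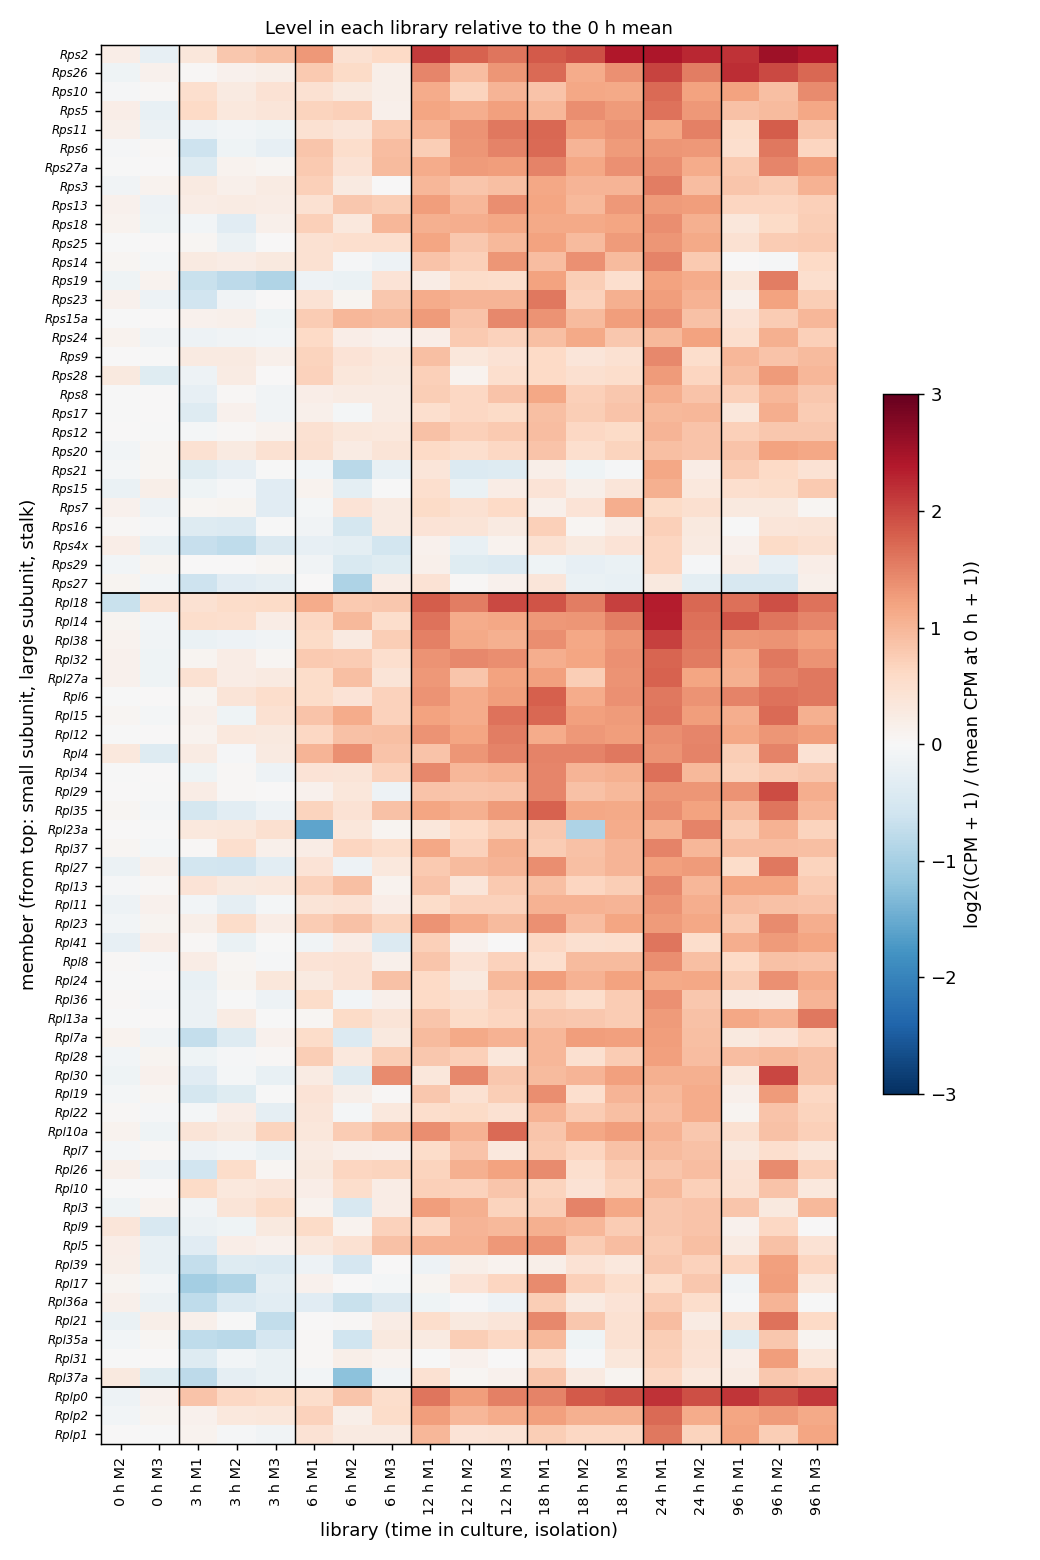
Level of 74 of the 75 members (rows, by subunit and then by log2 fold change at 24 h) in each of the 19 libraries (columns, by time and isolation), as log2 of CPM + 1 relative to the member's 0 h mean, from blue (lower) to red (higher). Most rows turn red from 12 h on and many are deepest in the 24 h M1 column, while the rows of Rps27 and Rps29 stay pale.

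The small subunit binds the mRNA and reads its codons. Of its 29 members 10 were called higher at 12 h, 14 (18 h), 17 (24 h) and 9 (96 h), with median log2 fold changes of 0.79, 0.95, 1.15 and 0.77. Rps2, a protein near the channel through which mRNA enters, had the highest log2 fold change of all members at every time from 12 h on. It read 95.2 and 69.7 CPM (0 h), 105, 145 and 155 (3 h), 206, 114 and 126 (6 h), 357, 283 and 253 (12 h), 298, 318 and 440.5 (18 h), 447 and 396 (24 h) and 373, 488 and 440 (96 h). All libraries from 3 h on were above both 0 h libraries. Its log2 fold change was 0.71 (SE 0.284, adjusted p = 0.231) at 3 h, 1.85 (SE 0.297, adjusted p = 0.000392) at 12 h, 2.35 (SE 0.319, adjusted p = 0.000142) at 24 h and 2.39 (SE 0.305, adjusted p = 7.02e-05) at 96 h. The antisense RNA gene Snhg9 overlaps Rps2 (13758 counts against 26262 in all libraries), and the rows named as Rps2 pseudogenes held 22.4% as many counts as Rps2. Summed with those rows, Rps2 had a log2 fold change of 2.24 at 24 h.

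Rps26, a protein of the mRNA exit site that is mutated in some families with Diamond-Blackfan anaemia, had its highest mean at 96 h. Its levels were 425 and 507 CPM (0 h), 474, 511 and 526 (3 h), 804, 698 and 528 (6 h), 1278, 886 and 1167 (12 h), 1516, 1011 and 1204 (18 h), 1909 and 1359 (24 h) and 2157, 1850 and 1530 (96 h). The 96 h libraries did not overlap those of 12 h. The change against 0 h was 1.81 (SE 0.259, adjusted p = 0.000227) at 24 h and 1.99 (SE 0.248, adjusted p = 5.95e-05) at 96 h on the log2 scale. Rps6, whose phosphorylation by the S6 kinases is a common readout of mTORC1, was lower than at 0 h in each 3 h library and higher in each 6 h library. It read 119 and 124 CPM (0 h), 78.8, 111 and 102 (3 h), 219, 177 and 233 (6 h), 204, 304 and 345 (12 h), 307 and 299.9 (24 h) and 174, 367 and 189.9 (96 h). The log2 fold change was 1.22 (SE 0.326, adjusted p = 0.0182) at 12 h, 1.32 (SE 0.349, adjusted p = 0.0274) at 24 h and 1.00 (SE 0.323, adjusted p = 0.0703) at 96 h. Rows named as Rps6 pseudogenes held 101% of its counts, so that its level is uncertain, and summed with those rows its value at 96 h was 0.92 and below 2-fold. Its 24 h call was lost without either 0 h library or without the 24 h M1 library (1.26 to 1.35), and its 96 h call, at the 2-fold limit, was lost under DESeq2 (0.85), without either 0 h library and without 5 others, of which 96 h M2 left 0.58. Rps27a, which is made as a fusion with ubiquitin, rose from 375 and 381 CPM at 0 h to 814, 921 and 906 CPM at 12 h, a log2 fold change of 1.22 (SE 0.222, adjusted p = 0.00116), and had 1.19 (SE 0.221, adjusted p = 0.00212) at 96 h. Rps15a was among the 3 highest members at 6 h, with 634, 748 and 722 CPM against 371 and 379 CPM at 0 h and a log2 fold change of 0.90 (SE 0.221, adjusted p = 0.0146).

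Other small subunit members had low values at 3 h or changed little. Rps19, the gene most often mutated in Diamond-Blackfan anaemia, had the lowest value of all members at 3 h. It read 361 and 427 CPM (0 h), 248, 229 and 212 (3 h), 353, 342 and 524 (6 h), 459, 574 and 570.3 (12 h), 909 and 857 (24 h) and 498, 1152 and 561 (96 h). The 3 h libraries all lay below those of 0 h, but the log2 difference of -0.78 (SE 0.304, adjusted p = 0.213) did not pass the test, whereas 1.16 (SE 0.341, adjusted p = 0.0476) at 24 h did. Without any 1 of the libraries of 0 h or 24 h the later call was lost, at values of 1.02 to 1.29. Rps4x, the X-linked S4 protein, was the member lower at 3 h at any fold. Its levels were 479 and 359 CPM (0 h), 259.7, 248 and 312 (3 h), 351, 344 and 285 (6 h), 457, 359.5 and 453 (12 h), 578, 516 and 558 (18 h), 650.5 and 507 (24 h) and 459, 626 and 583 (96 h). It had a log2 fold change of -0.62 (SE 0.193, adjusted p = 0.0945) at 3 h and 0.47 (SE 0.214, adjusted p = 0.248) at 24 h. Rps14, the S14 protein of the platform, reached 892 and 548 CPM (24 h) from 328 and 305 CPM (0 h) and was back at 319, 308 and 478 CPM (96 h). Its log2 difference between 96 h and 12 h was -0.77 (SE 0.237, adjusted p = 0.0472), the lowest of all members (-1.005 and called without the 96 h M3 library), and Ndst1 overlaps it on the other strand (13778 counts). Rps7 stayed between 264 and 709.9 CPM in all libraries, with a log2 fold change of 0.21 (SE 0.239, adjusted p = 0.68) at 96 h.

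The 3 most abundant of the small subunit members had the 3 lowest log2 fold changes of all members at 18 h. Rps29, a zinc-binding protein of the small subunit head, read 2590 and 2876 CPM (0 h), 2735, 2745 and 2848 (3 h), 2531, 1984 and 2117 (6 h), 3024, 2119 and 2061 (12 h), 2486, 2289 and 2385 (18 h), 4265 and 2653 (24 h) and 3202, 2321 and 3115 (96 h). All times overlapped 0 h except 6 h and 18 h, where every library was lower, and its log2 fold change was -0.20 (SE 0.206, adjusted p = 0.61) at 18 h, 0.34 (SE 0.227, adjusted p = 0.433) at 24 h and 0.08 (SE 0.208, adjusted p = 0.921) at 96 h. Rps27, another zinc-binding protein, read 2245 and 2007 CPM (0 h), 1387, 1676 and 1771 (3 h), 2137, 1124 and 2466 (6 h), 2879, 2171 and 2327 (12 h), 2737, 1858 and 1827 (18 h), 2620 and 1724 (24 h) and 1517, 1535 and 2359 (96 h). On the log2 scale it differed from 0 h by 0.01 (SE 0.3, adjusted p = 1) at 18 h, 0.03 (SE 0.329, adjusted p = 1) at 24 h and -0.24 (SE 0.299, adjusted p = 0.728) at 96 h. Rps21 held 1380 and 1500 CPM (0 h), 1355, 818 and 1238 (6 h), 1860, 1082 and 1107 (12 h), 1618, 1327 and 1408 (18 h), 3198 and 1675 (24 h) and 2461, 2176 and 1931 (96 h). Every 6 h library of Rps21 was below both 0 h libraries, and every library of 24 h and 96 h was above them. Its log2 fold change was -0.34 (SE 0.279, adjusted p = 0.499) at 6 h, -0.09 (SE 0.281, adjusted p = 0.909) at 12 h, 0.01 (SE 0.281, adjusted p = 1) at 18 h and 0.76 (SE 0.31, adjusted p = 0.186) at 24 h. The 24 h value was called with library size alone (1.04) or without the 24 h M2 library (1.16). The sign of these small values depended on the processing for Rps21 at 12 h and 18 h, Rps27 at 18 h and 24 h, and Rps29 at 18, 24 and 96 h. Across the members the correlation of the log2 level at 0 h with the log2 fold change at 24 h was -0.371, a description over 75 genes that share their libraries. The same 0 h libraries enter both values, so that error at 0 h by itself makes this correlation more negative.

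**Figure D4:**
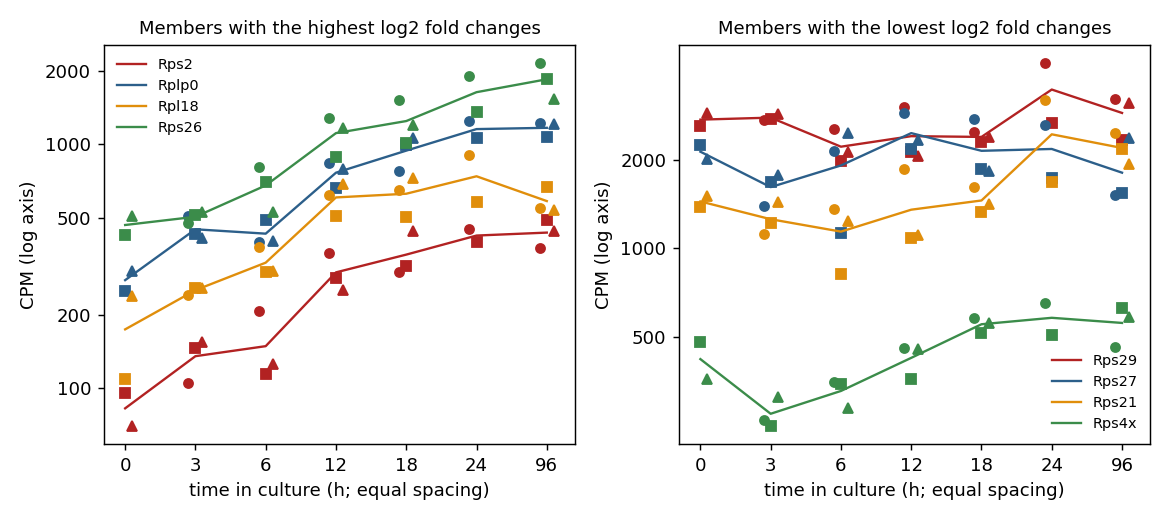
CPM on a log axis by time in culture (h, equal spacing) of 4 members among those with the highest (left) and 4 among those with the lowest log2 fold changes at some time (right). Circles, squares and triangles are libraries of isolations M1, M2 and M3 and lines join the means: Rps2 rose from 95.2 and 69.7 CPM (0 h) to 447 and 396 CPM (24 h), while Rps27 was at 2245 and 2007 CPM (0 h) and 2620 and 1724 CPM (24 h).

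The large subunit holds the peptidyl transferase centre and the exit tunnel. Of its 43 members without the stalk, 17 were called higher at 12 h, 21 (18 h), 27 (24 h) and 16 (96 h), with median log2 fold changes of 0.88, 1.02, 1.12 and 0.92. Rpl18 had the highest values among them. It read 108 and 239 CPM (0 h), 240.2, 257 and 258 (3 h), 379, 298 and 303 (6 h), 619, 509 and 686 (12 h), 649, 505 and 724 (18 h), 899.9 and 577 (24 h) and 548, 668 and 536 (96 h). The 0 h libraries differed by more than 2-fold, and the higher of them lay just below the lowest 3 h library. Its log2 fold change was 0.91 (SE 0.288, adjusted p = 0.0599) at 6 h, 1.80 (SE 0.299, adjusted p = 0.000525) at 12 h and 2.09 (SE 0.318, adjusted p = 0.000401) at 24 h. Without the 0 h M3 library Rpl18 had 1.21 at 3 h and 1.56 at 6 h and was called at both times. Rpl4, a protein with a loop that lines the exit tunnel, was the member called at 6 h with all libraries. It held 361 and 222 CPM (0 h), 344, 287 and 351 (3 h), 592, 761 and 527 (6 h), 533, 735 and 819.7 (12 h), 825, 824 and 874 (18 h), 742 and 815 (24 h) and 486, 817 and 391 (96 h), with a log2 fold change of 1.10 (SE 0.294, adjusted p = 0.0248) at 6 h and 1.53 (SE 0.299, adjusted p = 0.0024) at 18 h. The 6 h call was lost without the 0 h M3 library (0.76) or the 6 h M2 library (0.90).

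Rpl5 and Rpl11 form a particle with 5S ribosomal RNA and, when free of the ribosome, bind and inhibit Mdm2. Rpl5 read 293 and 219.6 CPM (0 h), 318, 350.2 and 471 (6 h), 533, 526 and 631 (12 h), 650, 435 and 485 (18 h), 436 and 478 (24 h) and 302, 473 and 348 (96 h). It was highest at 12 h, at 1.13 (SE 0.257, adjusted p = 0.00634) on the log2 scale, and had 0.54 (SE 0.252, adjusted p = 0.227) at 96 h. Rpl11 read 391 and 477 CPM (0 h), 564, 591 and 502 (6 h), 640.3, 706 and 700.1 (12 h), 889, 896 and 886 (18 h), 1106 and 931 (24 h) and 823, 802 and 789 (96 h), with 0.65 (SE 0.142, adjusted p = 0.00471) at 12 h and 1.23 (SE 0.154, adjusted p = 6.48e-05) at 24 h. Its groups from 6 h on did not overlap those of 0 h. Rpl10a was another early peak, at 357, 282 and 445 CPM at 12 h against 147 and 124 CPM at 0 h, with a log2 difference of -0.70 (SE 0.214, adjusted p = 0.0455) between 96 h and 12 h. Rpl9 had -0.60 (SE 0.234, adjusted p = 0.123) for the same difference. Rows named as Rpl10a pseudogenes held 63.8% as many counts as the gene.

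Other large subunit members had their highest values late. Rpl41, which encodes a peptide of the subunit interface and is the smallest ribosomal protein, read 549.8 and 744 CPM (0 h), 1066, 711 and 655 (12 h), 1980 and 931 (24 h) and 1380, 1564 and 1465 (96 h). Its log2 fold change was 0.33 (SE 0.279, adjusted p = 0.483) at 12 h and 1.18 (SE 0.287, adjusted p = 0.0147) at 96 h, and its 96 h libraries were all above those of 12 h by 0.86 (SE 0.249, adjusted p = 0.0356). The call at 96 h was lost without the 0 h M2 library (0.98), and without the 12 h M1 library the later difference was called (1.11). Rpl39, which lines the outer exit tunnel, had 372 and 282 CPM (0 h), 293, 368 and 353 CPM (12 h) and 514, 771 and 513 CPM (96 h), a difference of 0.83 (SE 0.196, adjusted p = 0.011) between the later times. Rpl13a, which can leave the ribosome to repress translation in inflammatory cells, rose from 518 and 526 CPM (0 h) to 1275 and 956 CPM (24 h) and 1167, 1086 and 1564 CPM (96 h). The fitted change was 1.09 (SE 0.216, adjusted p = 0.00371) at 24 h and 1.28 (SE 0.204, adjusted p = 0.000528) at 96 h. Without the 24 h M1 library the 24 h value was 0.87 and not called. Rpl37, 1 of the 5 members with the highest mean level, had 915 and 837 CPM at 0 h and 2465 and 1760 CPM at 24 h, at 1.27 (SE 0.212, adjusted p = 0.00091).

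The lowest values of the large subunit came early. At 3 h Rpl17 had -0.69 (SE 0.35, adjusted p = 0.374) and Rpl35a -0.68 (SE 0.34, adjusted p = 0.363), and at 6 h Rpl36a had -0.48 (SE 0.27, adjusted p = 0.31) and Rpl37a -0.38 (SE 0.326, adjusted p = 0.52), none of which passed the test. Rpl36a read 551 and 437 CPM (0 h), 292, 373 and 394 (3 h), 390.1, 308 and 365 (6 h), 451, 483 and 444 (12 h), 843 and 716 (24 h) and 479, 1005 and 492 (96 h). Each of its 3 h and 6 h libraries was below both 0 h libraries, and both 24 h libraries were above them.

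The stalk proteins Rplp0, Rplp1 and Rplp2 recruit the elongation factors to the ribosome. Rplp0 was the member higher at 3 h at any fold and had a higher mean at each later time except 6 h. Its levels were 251 and 303 CPM (0 h), 505, 427 and 410.2 (3 h), 396, 489 and 402 (6 h), 838, 660.5 and 792 (12 h), 779, 988 and 1055 (18 h), 1243 and 1063 (24 h) and 1221, 1068 and 1212 (96 h). Every library in culture was above both 0 h libraries. The log2 fold change was 0.69 (SE 0.18, adjusted p = 0.0377) at 3 h, 1.47 (SE 0.185, adjusted p = 4.31e-05) at 12 h, 2.06 (SE 0.2, adjusted p = 6.09e-06) at 24 h and 2.08 (SE 0.191, adjusted p = 2.92e-06) at 96 h. Rplp2 read 486 and 549 CPM (0 h), 838, 587 and 760.2 (6 h), 1235, 1036 and 1118 (12 h), 1670 and 1126 (24 h) and 1170, 1262 and 1139 (96 h) and had 1.43 (SE 0.2, adjusted p = 0.000179) at 24 h. Rplp1, the third most abundant member, read 1137 and 1129 CPM (0 h), 1537, 1357 and 1374 (6 h), 2269, 1514 and 1533 (12 h), 3386 and 1813 (24 h) and 2632, 1896 and 2580 (96 h), and 1.20 (SE 0.255, adjusted p = 0.00666) at 24 h and 1.06 (SE 0.238, adjusted p = 0.0087) at 96 h passed the test. Both 24 h libraries of Rplp1 exceeded those of 0 h, but M1 was far above M2. Without the M1 library the 24 h value was 0.68 and not called. DESeq2 called neither time (0.99 and 0.92), and the 96 h call was also lost with isolation as a block (0.94) and without the 96 h M1 (0.98) or M3 library (1.00).

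Between neighbouring times, few members were called higher, and only in the steps from 3 h to 6 h and from 6 h to 12 h. Between 3 h and 6 h 13 members were higher at any fold (3.15% of all genes), and the median log2 difference was 0.33. Of these, Rps6 and Rpl35 passed 2-fold, which is 2.67% of the members and near the 2.5% of all genes, and DESeq2 called none. Between 6 h and 12 h 14 were higher at any fold (0.641%), of which Rps2 and Rpl3 passed 2-fold (0.416%), with a median of 0.44. For the steps from 12 h to 18 h and from 18 h to 24 h edgeR and DESeq2 called no member. Few genes of any kind were called by edgeR there, 11 higher and 23 lower of 15138 in the first step and 2 and 4 in the second. The medians of the members were 0.11 and 0.16. In edgeR 4 and 9 members had an unadjusted p below 0.05, as had 1301 and 1027 of the 15138 genes. From 24 h to 96 h the median was -0.24 and Rps13, Rps14 and Rps25 were lower at any fold (1.63% of all genes). Between 12 h and 96 h 9 of the 75 members were higher and 4 were lower at any fold, near the background of 7.74% of all genes in each direction, and the median was 0.08. Higher were Rpl13a, Rpl31, Rpl39, Rpl41, Rplp0, Rps20, Rps21, Rps26 and Rps28, and lower were Rpl10a, Rps13, Rps14 and Rps18.

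With each library scaled on the members' own total, which takes out their common rise, few members changed their share of it by more than 2-fold. No member was called at 3 h or 6 h. At 12 h Rps2 and Rpl18 were called higher (4.33% of all genes on this scale). At 18 h the same 2 genes were higher (3.49%) and Rps29 was lower (15.8%). At 24 h Rps2, Rpl18 and Rplp0 were higher (1.89%) and Rps27 was lower (11.6%). At 96 h Rps2, Rplp0 and Rps26 were higher (2.21%) and Rps27 was lower (12.5%). The value of Rps2 on this scale was a log2 fold change of 1.32 at 24 h (SE 0.294, adjusted p = 0.00818) and 1.57 at 96 h (SE 0.279, adjusted p = 0.00137). Rps27 fell by 1.03 at 24 h (SE 0.284, adjusted p = 0.0294) and by 1.06 at 96 h (SE 0.253, adjusted p = 0.012), on the log2 scale. The mean log2 CPM of the small subunit genes exceeded that of the large subunit and stalk genes by 0.58 ± 0.0346 (SD, n = 2) at 0 h, 0.48 ± 0.044 (n = 3) at 12 h and 0.43 ± 0.108 (n = 3) at 96 h.

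Genes of the ribosome that the naming rule left out were read beside the members. Rpsa, the laminin receptor-related protein of the small subunit, rose from 262 and 324 CPM (0 h) to 1098 and 709 CPM (24 h) and 907, 736 and 1133 CPM (96 h), at 1.66 (SE 0.263, adjusted p = 0.000519) at 96 h. Rps3a1 had 1.06 (SE 0.205, adjusted p = 0.00314) and Rack1, a signalling scaffold bound to the small subunit head, 1.25 (SE 0.211, adjusted p = 0.000985) at 24 h, and both were called at 12, 18, 24 and 96 h. Rps3a1 lay near the 2-fold limit, and its 24 h call was lost under DESeq2 (0.84) and without the 0 h M3 (0.90) or 24 h M1 library (0.93). Its 96 h call was lost under DESeq2 (0.85), with no filter (0.96) and without any of 7 libraries (0.84 to 1.00). Rack1 lost its call at 24 h without the 24 h M1 library (0.93), and at 96 h under DESeq2 (0.92) and without the 0 h M3 (1.00) or 96 h M3 library (0.94). Fau, made as a fusion with a ubiquitin-like protein, passed the test below 2-fold at 12 h, with 0.98 (SE 0.27, adjusted p = 0.0226), and at 18 h, with 0.79 (SE 0.268, adjusted p = 0.068). At 24 h it had 0.77 (SE 0.288, adjusted p = 0.142), and was called with library size alone (1.06) or without the 24 h M2 library (1.11).

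Paralogs are further copies of a ribosomal protein gene, some of which enter the ribosome in place of their partner. Rps27l, a paralog of Rps27 known as a p53 target, was below both 0 h libraries in every 3 h library and was called higher from 12 h on. It read 156 and 131 CPM (0 h), 72.9, 68.5 and 97 (3 h), 206, 154 and 269 (6 h), 334, 393 and 423 (12 h), 717, 521 and 571 (18 h), 819.7 and 809 (24 h) and 414, 807 and 554 (96 h). The change on the log2 scale was -0.85 (SE 0.273, adjusted p = 0.105) at 3 h, which did not pass the test, 1.42 (SE 0.288, adjusted p = 0.00287) at 12 h, 2.51 (SE 0.317, adjusted p = 6.93e-05) at 24 h and 2.04 (SE 0.296, adjusted p = 0.000244) at 96 h. Of the counts of Rps27 and Rps27l together, a ratio that no scaling enters, Rps27l held 6.49% and 6.12% (0 h), 4.99%, 3.92% and 5.19% (3 h), 23.8% and 31.9% (24 h), and 21.4%, 34.5% and 19.01% (96 h). The retrogene Rps27rt had 164 and 123 CPM at 0 h and 174 and 117 CPM at 24 h, at 0.02 (SE 0.324, adjusted p = 1).

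Rpl7l1 was the first of the family to be called. It read 30.3 and 20.1 CPM (0 h), 103, 81.6 and 58.9 (3 h), 145, 126 and 108 (6 h), 184, 148 and 249.6 (12 h), 128, 226 and 180.4 (18 h), 126 and 118 (24 h) and 79.9, 78.2 and 93.5 (96 h), so that every library in culture was above both 0 h libraries. The fit gave a log2 fold change of 1.68 (SE 0.329, adjusted p = 0.00602) at 3 h and 2.94 (SE 0.348, adjusted p = 2.35e-05) at 12 h, and it was called lower at 96 h than at 12 h, at -1.21 (SE 0.276, adjusted p = 0.00842), where 6.57% of all genes were called lower. Its share of the counts of Rpl7 and Rpl7l1 was 6.46% and 4.11% at 0 h and 20.2%, 15.96% and 13.03% at 3 h. Rpl22l1, whose transcript Rpl22 protein is known to repress, went the other way. It read 188 and 166 CPM (0 h), 168, 183 and 232 (3 h), 218, 174 and 273 (6 h), 142, 265 and 222 (12 h), 172, 119.8 and 127 (18 h), 69.8 and 85.8 (24 h) and 189.6, 392.5 and 169 (96 h). At 24 h it was called lower, at -1.18 (SE 0.387, adjusted p = 0.0817), where 3.86% of all genes were called lower. The call was lost without any 1 of the 4 libraries of 0 h and 24 h (-1.33 to -1.04), with isolation as a block (-1.11) and with scaling on library size (-0.90). Rpl22l1 made up 29.2% and 27.5% of the counts of Rpl22 and Rpl22l1 (0 h), 7.57% and 8.12% (24 h) and 28.6%, 32.5% and 19.1% (96 h). Rpl36al had 1.06 (SE 0.291, adjusted p = 0.0326) and its partner Rpl36a 0.66 (SE 0.3, adjusted p = 0.245) at 24 h. The Rpl36al call was lost under DESeq2 (0.85) and without the 0 h M2, 0 h M3 or 24 h M2 library (1.00 to 1.11). Rps4l stayed between 10.9 and 54.8 CPM, at 1.26 (SE 0.631, adjusted p = 0.293) at 24 h, and Rpl3l, Rpl10l and Rpl39l did not pass the filter on low counts.

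**Figure D5:**
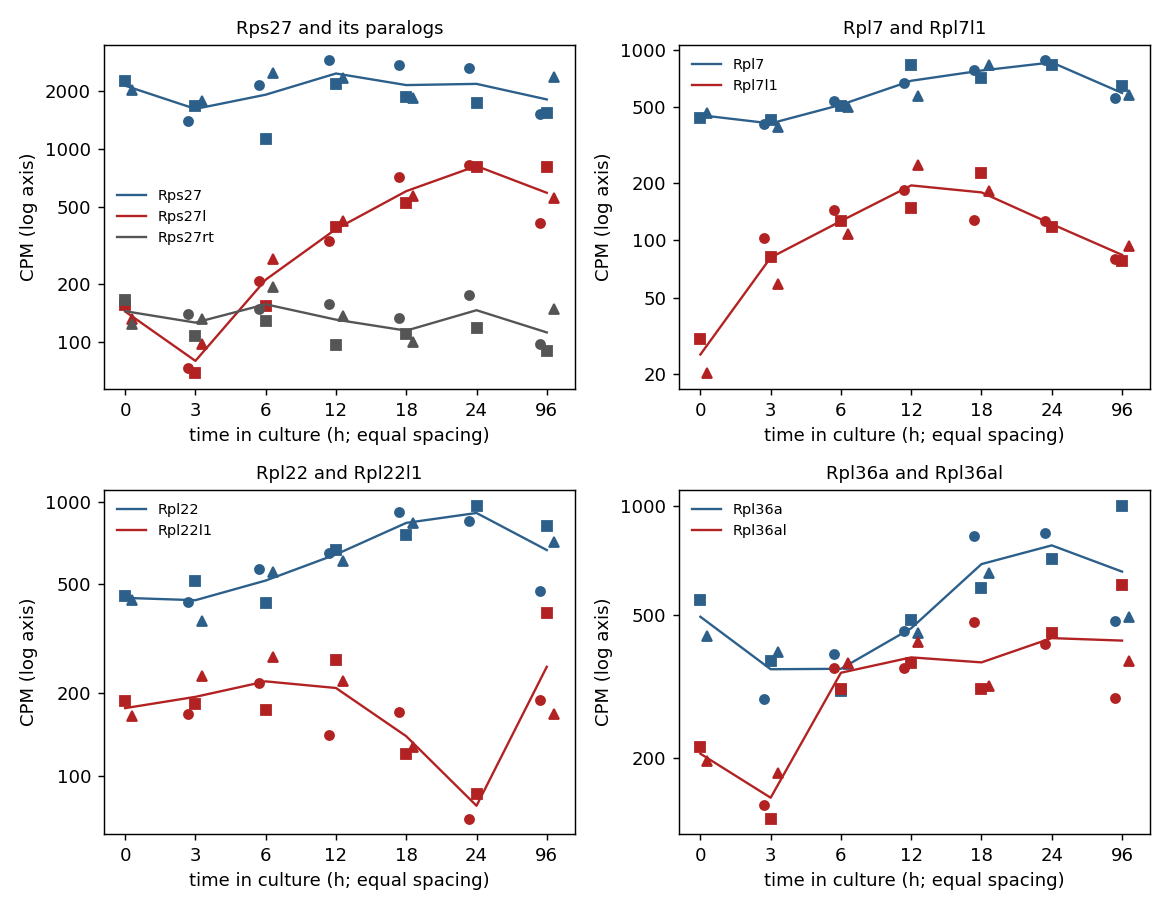
CPM on a log axis by time in culture (h, equal spacing) of 4 ribosomal protein genes (blue) and their paralogs (red, with Rps27rt in grey). Circles, squares and triangles are libraries of isolations M1, M2 and M3 and lines join the means: Rps27l rose to 819.7 and 809 CPM at 24 h while Rps27 was at 2620 and 1724 CPM, and Rpl22l1 fell to 69.8 and 85.8 CPM at 24 h while Rpl22 rose to 853 and 971 CPM.

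Other translation genes with TOP mRNAs were compared to see whether the course was shared. Of 20 listed genes, 12 were called higher at 12 h (8.6% of all genes), 11 were at 24 h (5.65%) and 8 were at 96 h (5.83%), and the median log2 fold changes were 1.18, 1.15 and 0.89. The early course differed from that of the members. At 3 h 3 of the 20 were called higher (4.19%) and at 6 h 5 were (6.98%), with medians of 0.38 and 0.76. The members had medians of 0.01 and 0.38 at these times, with 0 and 1 of 75 called. Highest at 12 h were Gas5, a non-coding host of small nucleolar RNAs, at 2.52 (SE 0.167, adjusted p = 1.35e-07), the nucleolar chaperone Npm1 at 2.40 (SE 0.217, adjusted p = 1.57e-06) and the elongation factor subunit Eef1g at 1.89 (SE 0.243, adjusted p = 5.02e-05). Lowest of those called were Btf3 at 1.14 (SE 0.298, adjusted p = 0.0161), Eef2 at 1.18 (SE 0.217, adjusted p = 0.00132) and Naca at 1.19 (SE 0.339, adjusted p = 0.0274). DESeq2 called none of these 3 (0.91 to 0.95). Without the 12 h M2 library Btf3 (0.99) and Naca (0.96) were not called, nor were they without 0 h M2 (Btf3, 1.00) and 0 h M3 (Naca, 0.99). Gas5 was at 941, 1016 and 989 CPM (6 h) and 1000, 1003 and 965 CPM (12 h), and at 211, 248.7 and 231 CPM (96 h) against 173 and 172 CPM (0 h). At 96 h Nap1l1 had 1.81 (SE 0.223, adjusted p = 5.46e-05), Eef1g 1.65 (SE 0.24, adjusted p = 0.000248) and Eef1b2 1.40 (SE 0.211, adjusted p = 0.000337), with Eif3f at 1.00 (SE 0.298, adjusted p = 0.0484) and Eef2 at 1.06 (SE 0.216, adjusted p = 0.00447). The calls of Eif3f and Eef2 were lost under DESeq2 (0.85 and 0.91), that of Eef2 without the 0 h M2 library (0.95), and that of Eif3f with no filter (0.96) and without any of 9 libraries (0.78 to 1.25). Eif4a2, an RNA helicase of translation initiation, was called lower at 96 h, at -1.81 (SE 0.319, adjusted p = 0.00134), where 5.03% of all genes were.

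The ribosome of the mitochondrion is made from a separate set of nuclear genes. Of its 78 genes tested 5 were called higher at 12 h (8.6% of all genes) and 4 lower (9.1%), 7 higher at 18 h (7.64%), 3 higher at 24 h (5.65%) and again 3 higher at 96 h (5.83%), near or below the background. Their median log2 fold change was -0.66 (3 h), 0.38 (12 h), 0.78 (24 h) and 0.56 (96 h), and these genes were far less abundant, at 0.199% of all counts at 0 h and 0.380% (24 h). Mrpl35 rose from 13.8 and 5.01 CPM at 0 h to 41.6, 48.6 and 53.4 CPM at 12 h, at 2.33 (SE 0.548, adjusted p = 0.00809), and had 2.34 (SE 0.548, adjusted p = 0.0117) at 96 h. Mrps2 had 2.21 (SE 0.461, adjusted p = 0.00355) at 12 h and 1.34 (SE 0.444, adjusted p = 0.0785) at 96 h, and Mrpl45 1.76 (SE 0.446, adjusted p = 0.0189) at 96 h. Mrpl53 had no count at 0 h and 40.5, 58.3 and 76.1 CPM at 12 h. Lower at 12 h were Mrps21, at -2.08 (SE 0.639, adjusted p = 0.0391), Mrpl14, at -1.82 (SE 0.683, adjusted p = 0.0931), and Mrpl55, which had 12.3 and 39.1 CPM at 0 h and no count at 12 h. The calls of Mrps2 (96 h) (1.29 to 1.38), Mrpl45 (96 h) (1.66 to 1.87), Mrpl14 (-1.90 to -1.75) and Mrpl53 (12 h) were lost without either 0 h library. Those of Mrpl35 at 12 h (1.78) and 96 h (1.80), Mrps21 (-1.54) and Mrpl55 were lost without 0 h M3. Leaving out any 1 library of 12 h ended the calls of Mrpl14, Mrpl53 and Mrpl55, any 1 of 96 h that of Mrps2, and 12 h M2 (-1.91) or M3 (-1.90) that of Mrps21.

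Genes that control or assist ribosomal protein synthesis were called higher in larger numbers at 6, 12 and 18 h than later. Of the 29 tested, 14 were called higher at 6 h against 6.98% of all genes, 17 (12 h) against 8.6%, 16 (18 h) against 7.64%, 9 (24 h) against 5.65% and 6 (96 h) against 5.83%. The median log2 fold changes were 1.28, 1.79, 1.77, 1.41 and 0.46. Myc, a transcription factor that drives ribosome production, read 15 and 24.6 CPM (0 h), 82.2, 80.7 and 161 (3 h), 286, 110.4 and 322 (6 h), 102, 608 and 437 (12 h), 162, 362 and 184 (18 h), 53.6 and 101 (24 h) and 9.45, 26.5 and 7.57 (96 h). Its libraries differed widely at 12 h and all were above 0 h, at 4.28 (SE 0.838, adjusted p = 0.00215), whereas 96 h overlapped 0 h. Larp1, the TOP-binding repressor, had 1.79 (SE 0.332, adjusted p = 0.00136) at 12 h and 0.68 (SE 0.317, adjusted p = 0.232) at 96 h. Mdm2, the ubiquitin ligase that free Rpl5 and Rpl11 inhibit and a p53 target, read 80.9 and 63.2 CPM (0 h), 211, 184 and 236 (12 h), 342 and 346 (24 h) and 162, 243 and 243 (96 h), at 2.25 (SE 0.24, adjusted p = 1.51e-05) at 24 h and 1.58 (SE 0.222, adjusted p = 0.000178) at 96 h. Nmd3, an export adaptor of the large subunit, rose from 8.26 and 0 CPM to 99, 169.7 and 175 CPM at 12 h, at 5.04 (SE 0.885, adjusted p = 0.000887), and Eif6, which keeps the subunits apart, from 26.3 and 17.6 CPM to 281, 127 and 245 CPM. Eif6 had 2.00 (SE 0.379, adjusted p = 0.00249) and Eif4ebp1, a repressor of cap-dependent translation, 2.49 (SE 0.299, adjusted p = 4.17e-05) at 96 h. Sesn2, an inhibitor of mTORC1, had 5.70 (SE 0.816, adjusted p = 0.00014) at 12 h and 3.86 (SE 0.759, adjusted p = 0.00331) at 96 h. Smallest of those called higher at 12 h were Max at 1.13 (SE 0.272, adjusted p = 0.00982) and Tsr2, the Rps26 chaperone, at 1.16 (SE 0.337, adjusted p = 0.029). Neither was called under DESeq2 (0.89 and 0.93) or without the 0 h M3 library (1.03 and 1.06). The Tsr2 call was also lost without 0 h M2 (1.25) and with no filter (1.10). Called lower were Rpf2, a 5S particle assembly factor, with -2.00 (SE 0.546, adjusted p = 0.0481) at 3 h, and Deptor, an mTOR inhibitor, with -3.54 (SE 1.32, adjusted p = 0.0901) at 12 h. The Deptor call was lost with the isolation date (-3.52), with isolation as a block (-3.60), with no filter (-3.60) and without any of 15 libraries (-3.86 to -3.10). Heatr3, which imports Rpl5, had no count at 0 h and 6.81, 16.1 and 25.5 CPM at 6 h.

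Among 3607 protein-coding genes of at least 50 CPM that are no members, those whose log2 CPM over the 19 libraries was most like the members' mean were ranked by Pearson correlation, as a description. The first 10 were Rps27l (0.961), Taldo1 (0.945), Ppp1r14b (0.942), Cct7 (0.941), Nme2 (0.939), Nme1 (0.932), Rps3a1 (0.927), AC117239.2 (0.924), Eif5a (0.921) and Hspe1 (0.921). The most opposite were App (-0.978), Reln (-0.964) and Hgf (-0.960), of which Reln and Hgf are markers of the quiescent stellate cell. All these values come from the same 19 libraries.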

How the data were processed

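Total RNA of the sorted or cultured cells was sequenced from its 3' ends (QuantSeq 3' mRNA-Seq FWD). The authors aligned reads with STAR to GRCm38.p6 (mm10 in the submitters' processing notes) and used StringTie, and they deposited a table of raw counts per gene. The counting tool, the annotation release and the handling of strand and of reads with several matches were not given in the sources used here, so that reads of a gene and its antisense partner, or of a gene and its processed pseudogenes, may be divided in an unknown way.

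Gene symbols and positions came from GENCODE M21 (55227 of 55487 identifiers matched) and start sequences from RefSeq (GRCm38.p6). Counts were scaled by TMM, filtered with filterByExpr (15138 genes kept) and fitted over all 19 libraries in 1 model of time with edgeR 4.0.16 (quasi-likelihood F-test, Benjamini-Hochberg adjustment over all genes tested, R 4.3.3, limma 3.58.1). The limits for a call were more than a 2-fold change and an adjusted p of less than 0.1. They follow limits that the study gives for its injury comparisons, where it does not say whether p was adjusted, and it gives none for the cultured cells. CPM are on the TMM scale, and log2 fold changes are those of the fit. The fit was tested on simulated data with known changes, up and down in equal number. Those data held no common shift of an abundant gene set, so that the test does not cover such a shift. The numbers M1 to M3 entered as a block only as an alternative, because over all genes libraries of the same number deviated together little. The mean correlation of deviations was 0.0143 over 51 pairs, against -0.0070 over 103 pairs of other numbers. Over the members alone these means lay further apart, at 0.062 and -0.031. Library totals ran from 2073171 to 7690892.

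The members and the gene lists were chosen with earlier results of these data known. Genes are named in the text by a fixed rule: the 3 highest and 3 lowest members at a time, the 5 with the highest mean, a list of well-known members, genes outside the naming rule, and the extremes of each list called. Some genes that the rule names or a figure would show are not reported here, but remain in the counts. Alternatives were DESeq2 1.42.0, library size alone, TMM without the members, no filter, other limits, only the groups compared, the isolation date or isolation as a covariate and each library left out in turn. Summing members with their pseudogenes was chosen after seeing the data. Figures were drawn with matplotlib 3.10.9 under Python 3.11.15.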

Additional observations from a re-analysis of the deposited data

How the results depend on the processing

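No alternative turned the direction of the members' median at 6, 12, 18, 24 or 96 h against 0 h. DESeq2 gave lower medians of 0.15 (6 h), 0.65 (12 h), 0.78 (18 h), 0.94 (24 h), 0.73 (96 h) and 0.18 from 3 h to 6 h, with 0 members called at 6 h, 13 (12 h), 13 (18 h), 30 (24 h), 0 from 3 h to 6 h and 1 from 6 h to 12 h. Library size alone gave medians of 1.27 (18 h), 1.43 (24 h), 1.03 (96 h), 0.25 from 12 h to 18 h and -0.36 from 24 h to 96 h, with 1 member called in the last. These scalings put the median of all genes at 0.24 (24 h, against 0) and 0.22 (96 h, against 0.07) for library size and at -0.13 (6 h) and -0.15 (12 h, both against 0) for DESeq2. Relative to all genes the members' median was then 1.19 and 0.81, and 0.28 and 0.79. With any fold allowed, 2 members passed at 3 h, 19 (6 h), 51 (12 h), 47 (96 h), 13 from 3 h to 6 h, 14 from 6 h to 12 h, 3 from 24 h to 96 h and 13 from 12 h to 96 h. With only the groups compared, 3 were called at 6 h and 0 from 6 h to 12 h, and an adjusted p below 0.05 also left 0 there. From 3 h to 6 h, 1 member was called with TMM without the members, the isolation date, pseudogenes summed, no filter or the isolation block, and with pseudogenes summed 1 from 6 h to 12 h. With mitochondrial counts left out, the share was 0.894 times that of 0 h at 3 h and 1.595 times at 12 h. The isolation block called 30, 37, 44 and 25 members at 12, 18, 24 and 96 h, and among the named genes it ended the calls of Rplp1 (0.94) and Mrps2 (1.39) at 96 h, Rpl22l1 (-1.11) and Rpl41 (1.00) at 24 h, and Mrpl14 (-1.90), Deptor (-3.60) and Heatr3 (6.71) at 12 h. The causes of these shifts were not tested.

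Leaving out each library in turn, 0 to 1 members were called at 3 h, 0 to 1 (6 h), 22 to 31 (12 h), 27 to 41 (18 h), 28 to 47 (24 h) and 20 to 30 (96 h), with 28 (24 h) without its M1 library. For the steps the ranges were 0 to 2 from 3 h to 6 h, 0 to 3 from 6 h to 12 h, 0 to 1 from 24 h to 96 h and 0 to 2 from 12 h to 96 h. The medians ran from -0.01 to 0.08 (3 h), 0.33 to 0.39 (6 h), 0.81 to 0.88 (12 h), 0.90 to 1.02 (18 h), 0.98 to 1.27 (24 h) and 0.70 to 0.94 (96 h). They ran from 0.28 to 0.35 from 3 h to 6 h, 0.44 to 0.52 from 6 h to 12 h, 0.02 to 0.16 from 12 h to 18 h, 0.10 to 0.34 from 18 h to 24 h, -0.37 to -0.066 from 24 h to 96 h and -0.01 to 0.17 from 12 h to 96 h. The share as a fold of 0 h ran from 0.938 to 0.980 (3 h), 1.22 to 1.33 (6 h), 1.70 to 1.82 (12 h), 1.95 to 2.17 (18 h), 2.18 to 2.83 (24 h) and 1.86 to 2.05 (96 h).

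Single genes whose small log2 value changed sign were called in no case. With library size alone Rpl36a had 0.0010 and Rps21 0.0083 at 12 h and Rps29 0.043 at 18 h, and with pseudogenes summed Rpl36a had 0.015. Under DESeq2, the isolation date, no filter, only the groups compared and the isolation block in that order, Rps21 had -0.23, -0.048, -0.048, -0.017 and -0.11 (18 h), Rps27 had -0.23, -0.068, -0.051, -0.015 and -0.072 (18 h), and Rps27rt had -0.20, -0.036, -0.037, -0.00053 and -0.052 (24 h). Rps27 at 24 h had -0.18 (DESeq2), -0.012 (date), -0.020 (no filter) and -0.018 (block), and Rps29 at 96 h -0.073 (DESeq2) and -0.027 (block). With each library left out in turn the values ran from -0.29 to 0.072 for Rpl36a and -0.40 to 0.032 for Rps21 at 12 h, and from -0.11 to 0.032 for Rps21 and -0.21 to 0.11 for Rps27 at 18 h. At 24 h they ran from -0.30 to 0.31 for Rps27, -0.29 to 0.28 for Rps27rt and -0.043 to 0.65 for Rps29, and at 96 h from -0.0069 to 0.21 for Rps29. Of the other values of single named genes, 920 kept direction and side of the limits, 47 lost and 7 gained a call, and with a library left out 2213 kept them, 121 lost and 9 gained a call.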
